A study of Rattus norvegicus with 18 samples.

Results

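This comparison sets 48 h of phenylephrine against 4 h of phenylephrine in neonatal rat ventricular myocytes (NRVM) that had received vehicle. It used 6 of the 18 libraries of the series, 3 at 48 h and 3 at 4 h, and 10431 of the 17312 genes in the deposited table. A gene was compared when it carried the status OK and a value above 0 at both times and averaged at least 1 FPKM over the 6 groups of the series. FPKM counts fragments per kilobase of transcript, scaled to the mapped fragments, and is a level corrected for transcript length. The myocytes came from hearts of 2-day-old Sprague-Dawley pups. They were plated in serum, moved to serum-free medium with ITS, and given vehicle for 24 h. Phenylephrine (PE) was then present for 48 h or for 4 h. A vehicle group taken at 0 h of PE, and 3 groups pretreated with SR9009, a synthetic agonist of the REV-ERB nuclear receptors, and then given PE for 0, 4 or 48 h, serve here as values set alongside. No culture was kept for 4 or 48 h without PE, so PE and the 44 h of further culture cannot be told apart.

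Phenylephrine is an agonist of α1-adrenergic receptors, which couple through Gq to phospholipase C, calcium release, protein kinase C and the ERK cascade. In cultured neonatal myocytes this signalling first induces immediate early transcription factors and their feedback inhibitors. Over a longer time the cells enlarge, assemble sarcomeres and take up a fetal-like gene program whose best-known markers are the natriuretic peptides and skeletal α-actin. The cells of neonatal ventricle can still enter the cell cycle, and such cultures also hold fibroblasts and other non-muscle cells.

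The authors combined the 3 libraries of a group into 1 FPKM per gene with a lower and an upper bound, so there is no standard deviation and no difference was tested. Differences are 48 h minus 4 h of log2(FPKM + 1), a scale that compresses the differences of genes with low levels. The range given with a difference is the widest that the bounds allow. Below, a gene is called higher or lower at 48 h when its difference is at least 1, a 2-fold difference for well-expressed genes, and its range excludes 0. Depth is unknown. For genes of at least 5 FPKM the bounds lay a median of 14.9% to either side of the value at 48 h, and also at 4 h. FPKM summed over all genes to 609018, 699056 and 710198 at 0, 4 and 48 h. Just inside the size limit were Slc2a8, with a difference of 1.005 and called higher, and Gpd1, at -1.0 and called lower. Just outside it were Chaf1b at 0.9999 and Masp1 at -0.9991.

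Of the 10415 compared genes whose values lay within their own bounds, 401 (3.85%) were higher at 48 h and 247 (2.37%) were lower. Counts of called genes in the lists and cell type markers below are to be read beside these shares. The list members were chosen with earlier results of these data known, so list counts and medians are descriptions and not tests. The median difference over all compared genes was 0.01, with quartiles of -0.25 and 0.28. Differences of at least 2 were found for 42 higher and 35 lower genes. The 401 higher genes had a median level of 7.02, 5.62 and 16.9 FPKM at 0, 4 and 48 h. The 247 lower genes had a median level of 21.6, 29.2 and 9.09 FPKM at those times. The values at 4 and 48 h chose these genes, while those at 0 h entered only through the filter on the mean of the 6 groups. Myl6, a myosin light chain, had a larger difference still, with 0.0290 FPKM at 48 h and 66.6 FPKM at 4 h, but its bounds reached 0 at both times and its range of -7.47 to 0.94 kept it from being called.

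**Figure D1:**
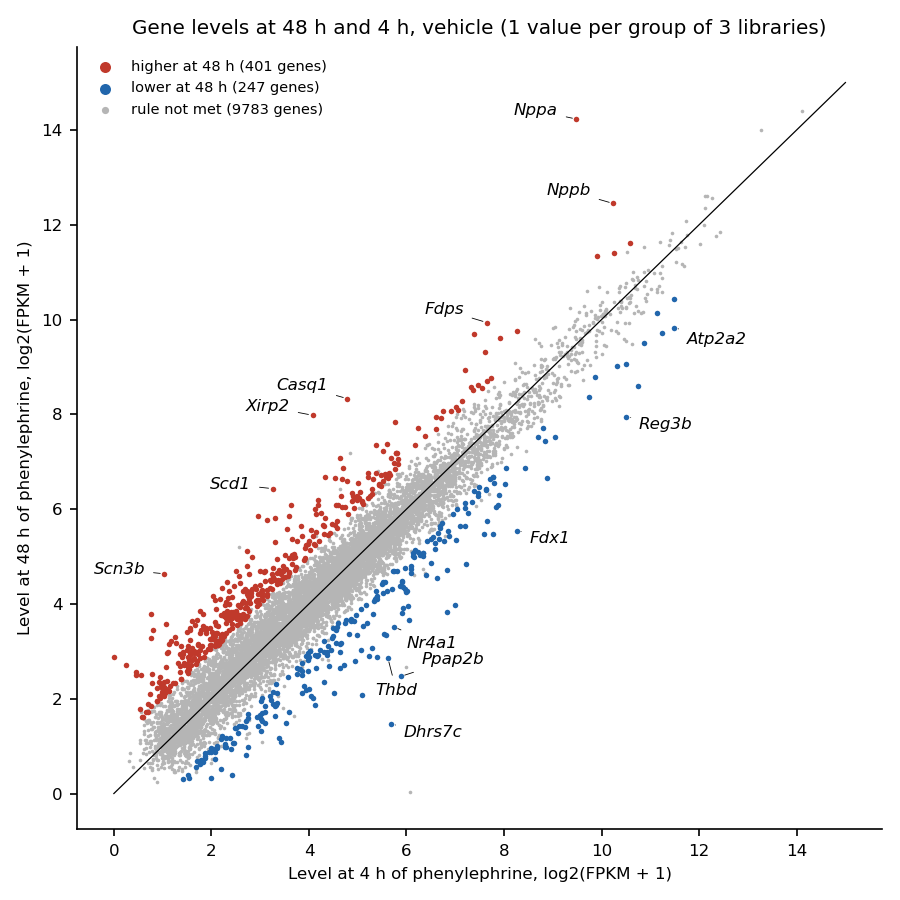
Level of each compared gene at 48 h of PE (vertical axis) against its level at 4 h (horizontal axis), both as log2(FPKM + 1) in vehicle-treated myocytes. Each point is 1 gene with 1 combined value per group of 3 libraries, the line marks equal levels, and 401 genes are called higher (red) and 247 lower (blue). Nppa stands farthest above the line and Dhrs7c far below it.

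The largest difference among called genes was that of Nppa, which encodes atrial natriuretic peptide, a hormone made by atria and by stressed or fetal ventricle. Its level was 19205 FPKM at 48 h (bounds 15020 to 23391), against 716 FPKM at 4 h (bounds 615 to 817), and it was 184 FPKM at 0 h. On rn6 its locus is chr5:164808407-164809716. The difference was 4.74 (range 4.20 to 5.25), or 26.8-fold. Nppa thus supplied 2.70% of the summed FPKM at 48 h, where it was the gene of rank 2, against 0.102% and rank 167 at 4 h. Nppb, the gene of brain natriuretic peptide and the neighbour of Nppa, was already high at 4 h. Its levels were 105, 1208 and 5588 FPKM at 0, 4 and 48 h, a 48 h minus 4 h difference of 2.21 (range 1.79 to 2.62). Acta1, skeletal α-actin, had 387, 1536 and 3129 FPKM at 0, 4 and 48 h, with a difference of 1.03 (range 0.58 to 1.47). Reads of Acta1 can be shared with its close actin relatives, so its value is uncertain to that extent.

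The proximal promoters of these 3 genes are shown because they are the standard markers of the hypertrophic program and their regulatory elements are well studied. The stretches are the 140 bases before the start, 5′ to 3′, from RefSeq build GRCr8, at chr5:163712044-163712183 (plus strand) for Nppa, chr5:163699868-163700007 (plus strand) for Nppb and chr19:68784195-68784334 (minus strand) for Acta1. Capitals mark a TATA box (TATAAA) in Nppa and Acta1, an M-CAT element (CATTCC, or GGAATG on the other strand) in Nppb and Acta1, a GATA site (AGATAA) in Nppb, and a CArG box, which binds serum response factor, in Acta1. The GATA site was searched only as AGATAA, so the similar letters tgataa in Nppa and Nppb are not marked. A missing mark therefore does not show that a GATA site is absent.
Nppa: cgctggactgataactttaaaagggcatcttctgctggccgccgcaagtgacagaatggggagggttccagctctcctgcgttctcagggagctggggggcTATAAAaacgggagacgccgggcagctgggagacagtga
Nppb: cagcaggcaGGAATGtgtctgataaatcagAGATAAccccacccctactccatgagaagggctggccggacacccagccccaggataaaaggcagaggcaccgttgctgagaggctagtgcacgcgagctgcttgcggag
Acta1: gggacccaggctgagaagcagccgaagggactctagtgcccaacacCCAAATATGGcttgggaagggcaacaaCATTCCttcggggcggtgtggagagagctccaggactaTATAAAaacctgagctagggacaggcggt
Both strands were searched over the 250 bases before and the 50 after each start, and the marked matches do not overlap one another. Among all 33469 windows of that length in the table, 14.2% held a TATA box, 14.2% an M-CAT element, 11.6% a GATA site and 1.64% a CArG box. Among the 8859 windows of the genes compared the shares were 6.91%, 11.3%, 6.03% and 1.25%. A match describes the letters and is no evidence of binding.

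The list of natriuretic peptide and hypertrophy genes had 17 members compared, of which 5 were higher and 1 was lower at 48 h. The median difference was 0.32 against 0.01 over all genes. As members were chosen with earlier results of these data known, the choice itself may have shaped this count and median. Beside the 3 genes above, the higher members were Xirp2, an actin-binding protein of the intercalated disc, and Casq1, the skeletal calsequestrin that buffers calcium in the sarcoplasmic reticulum. Xirp2 had 10.4, 15.8 and 252 FPKM at 0, 4 and 48 h, a difference of 3.91 (range 3.46 to 4.34). Casq1 had 22.1, 26.6 and 321 FPKM, a difference of 3.54 (range 3.14 to 3.95). The lower member was Hopx, a homeodomain-only cofactor of cardiac development, with 31.2, 40.9 and 16.9 FPKM. Fhl1 and Csrp3, LIM proteins of the sarcomere, had levels of 209, 1478 and 2754 FPKM and of 249, 981 and 1643 FPKM. Their differences of 0.90 and 0.74 did not reach the size limit.

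Among 22 sarcomere and Z-disc genes 3 were higher and 2 were lower, against 3.85% and 2.37% of all genes. The list's median difference was 0.24. Myl4, the atrial and fetal essential light chain, was higher, at 781 FPKM at 48 h against 241 FPKM at 4 h. Myom2 and Des, an M-band protein and the muscle intermediate filament desmin, were also higher, with differences of 1.25 and 1.15. Myom2 had 106, 43.3 and 104 FPKM at 0, 4 and 48 h, so its 48 h level was near its 0 h level. Myl7, the atrial regulatory light chain, was lower, at 91.8 FPKM at 48 h against 259 FPKM at 4 h. Tnni3, the adult cardiac troponin I, had 1386 FPKM at 48 h against 2850 FPKM at 4 h, a difference of -1.04 (range -1.42 to -0.65). The 2 atrial light chains therefore stood on opposite sides of 0. Actc1, cardiac α-actin, had 21530 FPKM at 48 h and 17773 FPKM at 4 h, a difference of 0.28. Myh6 and Myh7, the myosin heavy chains, could not be compared. Myh6 had 1192 FPKM at 48 h and no estimate at 0 or 4 h, and Myh7 had 261 FPKM at 4 h and no estimate at 48 h.

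Scn3b, a sodium channel β subunit, had 23.9 FPKM at 48 h against 1.05 FPKM at 4 h, a difference of 3.60 (range 3.21 to 3.98). Myl1, the skeletal fast essential light chain, had 56.5 FPKM at 48 h against 6.77 FPKM at 4 h. Sypl2, or mitsugumin 29, a protein of skeletal muscle triads, had 9.91 FPKM at 48 h against 0.742 FPKM at 4 h. These 3 genes had between 0.628 and 7.09 FPKM at 0 h, close to their 4 h levels. Gldn (gliomedin, a matrix protein of nodes of Ranvier), Pxdc1, Flt4 (the receptor VEGFR3) and Snap91 (a clathrin assembly protein of synapses) had differences of 3.02, 2.62, 2.50 and 2.50. Gldn had 2.85, 0.690 and 12.7 FPKM at 0, 4 and 48 h, so its 4 h level was the lowest of the 3.

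**Figure D2:**
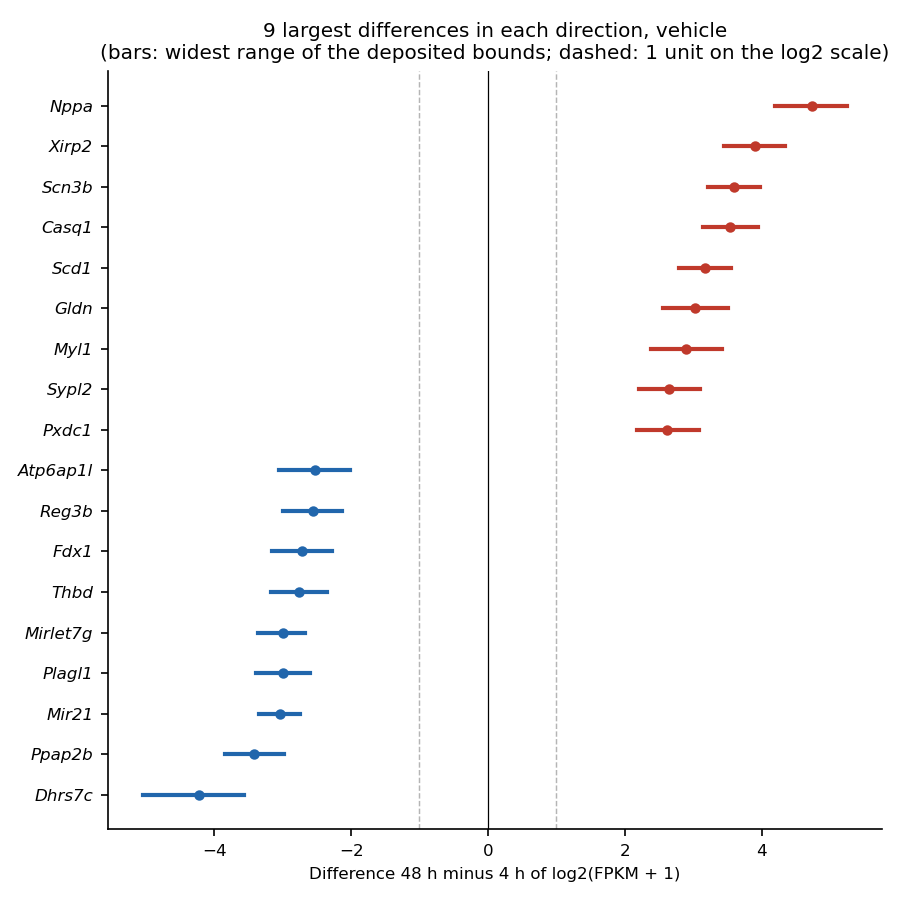
The 9 largest differences in each direction among named genes that met the rule and reached 5 FPKM in either group, as 48 h minus 4 h of log2(FPKM + 1) in vehicle. Points are differences, bars the widest range of the deposited bounds and dashed lines 1 and -1; Nppa at 4.74 and Dhrs7c at -4.22 are the extremes.

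Genes of sterol and fatty acid synthesis were higher at 48 h as a group. These enzymes make cholesterol from acetyl-CoA through mevalonate, and make and desaturate fatty acids, largely under the SREBP transcription factors. Of 30 members compared 18 were higher and none lower, against 3.85% of all genes higher, and all 30 lay above 0. The list median was 1.15. Scd1, the stearoyl-CoA desaturase, had 8.41, 8.56 and 85.4 FPKM at 0, 4 and 48 h, a difference of 3.18 (range 2.80 to 3.55), in the rn6 locus chr1:264160129-264172729. Reads of Scd1 can be shared with Scd2. Fads1, the Δ5 desaturase, had 102 FPKM at 48 h against 19.0 FPKM at 4 h, and Fdps, farnesyl diphosphate synthase, had 979 FPKM at 48 h against 200 FPKM at 4 h. Fads2, with 85.4 FPKM at 48 h and 23.7 FPKM at 4 h, was not called because its range ran from -0.16 to 6.99.

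Within the pathway the steps differed in size. Hmgcs1, the synthase of the early mevalonate branch, had 366 FPKM at 48 h against 163 FPKM at 4 h, and Idi1, the isomerase before Fdps, had 207 FPKM against 74.9 FPKM. Insig1, a sensor that restrains SREBP processing, had 63.0, 103 and 241 FPKM at 0, 4 and 48 h and was called at a difference of 1.22. The factor genes Srebf1 and Srebf2 had differences of 0.81 and 0.70 and were not called.

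Promoter stretches of 3 mevalonate-branch genes are shown because CCAAT boxes bind NF-Y, a known partner of SREBP, with these boxes (CCAAT, or ATTGG on the other strand) in capitals. They lie at chr2:176804817-176804956 (minus strand) for Fdps, chr17:66547525-66547664 (minus strand) for Idi1 and chr2:53382164-53382303 (plus strand) for Hmgcs1.
Fdps: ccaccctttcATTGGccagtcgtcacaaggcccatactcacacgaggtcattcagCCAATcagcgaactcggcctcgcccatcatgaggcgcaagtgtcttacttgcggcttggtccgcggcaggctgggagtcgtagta
Idi1: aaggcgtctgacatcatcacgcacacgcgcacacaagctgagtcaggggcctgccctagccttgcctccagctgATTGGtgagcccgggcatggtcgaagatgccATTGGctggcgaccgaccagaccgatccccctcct
Hmgcs1: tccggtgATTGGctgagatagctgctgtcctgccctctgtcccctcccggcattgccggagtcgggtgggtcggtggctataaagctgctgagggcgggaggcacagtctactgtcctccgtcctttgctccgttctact
CCAAT boxes stood in 18 of the 22 windows of the 21 list genes that had an entry, in 37.5% of all windows and in 37.7% of those of the genes compared. A sterol regulatory element, searched as TCACNCCAC, was in 0 of those 22 windows, in 1.12% of all windows and in 1.17% of those of the genes compared. With 21 of 30 genes matched, under 80%, these counts are no comparison.

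Cell cycle and DNA replication genes formed the other large group that was higher. Of 43 members 30 were higher and none lower, against 3.85% and 2.37% of all genes, and 42 lay above 0. The list median was 1.24. The 43 genes had a median level of 3.37, 3.14 and 4.20 on the log2(FPKM + 1) scale at 0, 4 and 48 h. Rrm2, the inducible subunit of ribonucleotide reductase, led with 28.3, 23.9 and 133 FPKM, a difference of 2.44 (range 2.03 to 2.84). E2f1, the transcription factor of the G1/S transition, had 13.4 FPKM at 48 h against 2.39 FPKM at 4 h. Prc1, a spindle midzone organiser, and Top2a, topoisomerase IIα, had differences of 2.03 and 2.01. The mitotic kinase Cdk1 had 55.1 FPKM at 48 h against 19.1 FPKM at 4 h, and Mki67, a proliferation marker, had 13.2 FPKM against 4.47 FPKM. Cyclin genes had differences of 1.14 for Ccnd1, 0.94 for Ccnd2, 0.67 for Ccne1, 0.45 for Ccne2, 1.23 for Ccna2, 1.38 for Ccnb1 and 1.08 for Ccnb2, and those of Ccnd2, Ccne1 and Ccne2 were not called. Tyms, thymidylate synthase, was the single member below 0, with 34.1 FPKM at 48 h and 34.8 FPKM at 4 h.

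The promoters of Cdk1, Top2a and Ccnb2 are printed because many G2/M genes carry a cell cycle homology region (TTTGAA, or TTCAAA on the other strand) together with CCAAT boxes, here in capitals. They lie at chr20:19265153-19265292 (plus strand) for Cdk1, chr10:84473094-84473233 (minus strand) for Top2a and chr8:79981659-79981798 (minus strand) for Ccnb2.
Cdk1: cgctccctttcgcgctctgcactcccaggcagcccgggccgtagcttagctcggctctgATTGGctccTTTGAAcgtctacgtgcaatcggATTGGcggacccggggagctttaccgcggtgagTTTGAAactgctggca
Top2a: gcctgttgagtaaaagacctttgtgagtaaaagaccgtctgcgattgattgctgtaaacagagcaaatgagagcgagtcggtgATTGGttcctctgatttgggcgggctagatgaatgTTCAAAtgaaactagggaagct
Ccnb2: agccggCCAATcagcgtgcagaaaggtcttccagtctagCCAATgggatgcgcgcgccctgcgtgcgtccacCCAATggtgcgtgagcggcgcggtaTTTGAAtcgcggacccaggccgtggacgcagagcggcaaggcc
The homology region stood in 16 of 31 windows of the list in 18.3% of all windows and in 11.2% of those of the genes compared, and the CCAAT box in 22 of 31, 37.5% and 37.7%. Windows were found for 31 of 43 genes, under 80%, so no share is compared.

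**Figure D3:**
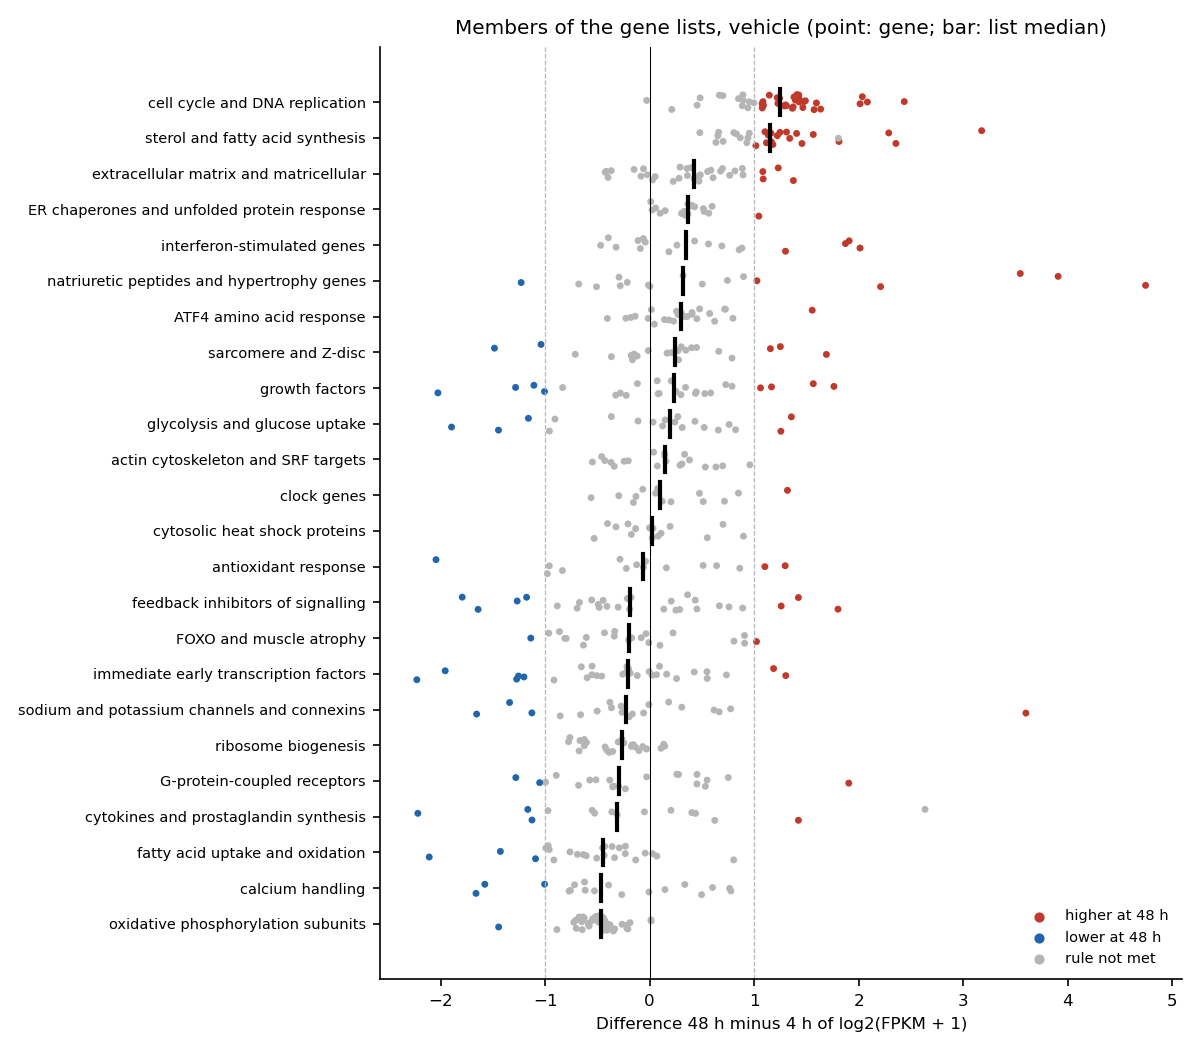
Differences of the compared members of 24 gene lists, 48 h minus 4 h of log2(FPKM + 1) in vehicle, sorted by list median. Each point is a gene, red when higher and blue when lower by the rule, and the bar is the list median; the cell cycle list, at 1.24, and the sterol and fatty acid list, at 1.15, stand apart from the rest, which lie between -0.47 and 0.43.

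The genes that were lower at 48 h included transcription factors of the immediate early response. Of 30 such genes 5 were lower and 2 higher, against 2.37% and 3.85% of all genes, with a median difference of -0.21. Nr4a1, an orphan nuclear receptor, had 4.36, 52.5 and 10.4 FPKM at 0, 4 and 48 h, a difference of -2.23 (range -2.66 to -1.80). Its relative Nr4a3 had 0.787, 18.7 and 4.07 FPKM, and Fos, the AP-1 subunit, had 8.04, 44.6 and 17.9 FPKM. At 48 h all 3 were still above their 0 h level. Klf2, a zinc-finger factor, and Crem, a cAMP-responsive modulator, were also lower, with differences of -1.26 and -1.20. Myc, the growth-promoting transcription factor, and Bhlhe40, a repressor tied to clock and stress responses, were higher, at 17.6 FPKM at 48 h against 7.20 FPKM at 4 h and at 64.6 FPKM against 25.6 FPKM. Others of the list hardly differed, such as Mafk, a small Maf protein, at 81.4 FPKM at 48 h and 81.6 FPKM at 4 h, with 26.1 FPKM at 0 h.

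Feedback inhibitors of the same signalling were split, with 4 lower and 3 higher of 29, against 2.37% and 3.85% of all genes. Sik1, a salt-inducible kinase that restrains CREB coactivators, had 10.9, 160 and 70.4 FPKM at 0, 4 and 48 h, a difference of -1.18 (range -1.61 to -0.75). Rrad, a GTPase that inhibits L-type calcium channels, had 66.6 FPKM at 48 h against 233 FPKM at 4 h. Dusp5 and Dusp2, nuclear phosphatases of ERK, had differences of -1.64 and -1.27. Dusp4, another nuclear MAP kinase phosphatase, was higher instead, at 48.8 FPKM at 48 h against 13.3 FPKM at 4 h. Rgs4 and Rgs5, which speed GTP hydrolysis by Gα subunits, were higher too, with differences of 1.42 and 1.26. Rcan1, the calcineurin inhibitor and calcineurin target, kept most of its level, with 59.7, 332 and 286 FPKM.

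Promoters of Nr4a1, from the early factor list, and Dusp5, from the feedback inhibitor list, are shown as examples that have RefSeq entries. Capitals mark core motifs of the cAMP response element (TGACG, or CGTCA on the other strand) and, in Dusp5, a pair of adjoining CArG boxes. They lie at chr7:134259998-134260137 (plus strand) for Nr4a1 and chr1:262543634-262543773 (plus strand) for Dusp5.
Nr4a1: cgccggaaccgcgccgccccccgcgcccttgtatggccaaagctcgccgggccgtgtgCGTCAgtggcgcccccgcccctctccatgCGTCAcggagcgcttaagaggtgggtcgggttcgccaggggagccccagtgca
Dusp5: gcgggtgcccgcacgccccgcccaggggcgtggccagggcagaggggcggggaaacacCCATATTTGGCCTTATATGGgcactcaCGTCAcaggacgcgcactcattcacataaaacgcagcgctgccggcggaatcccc
The core motif was in 21.2% of all windows and in 32.9% of those of the genes compared, and the CArG box in 1.64% and 1.25%. For 20 of the 30 early factor genes a window was found, under 80%, so no share is compared for that list. Of the feedback inhibitors 26 of 29 genes had an entry. The core motif was in 13 of their 29 windows and the CArG box in 2.

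Receptor and secreted signal genes stood on both sides of 0. Among 21 G-protein-coupled receptor genes 1 was higher and 2 were lower, against 3.85% and 2.37% of all genes. F2rl1, the protease-activated receptor PAR2, had 8.06 FPKM at 48 h against 1.42 FPKM at 4 h, while S1pr3, a sphingosine 1-phosphate receptor, had 7.60 FPKM at 48 h against 19.9 FPKM at 4 h. Gcgr, the glucagon receptor, was also lower, at -1.05. The receptors of PE itself had 48 h and 4 h levels of 19.9 and 14.3 FPKM for Adra1a, 6.87 and 13.6 FPKM for Adra1b, and 7.94 and 13.3 FPKM for Adra1d, none of them called. Bdkrb2, the bradykinin B2 receptor, had 0.759, 42.9 and 32.7 FPKM at 0, 4 and 48 h, so its 48 h minus 4 h difference of -0.38 (range -0.80 to 0.03) was not called.

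Of 15 cytokine and prostaglandin genes 3 chemokines were lower. Cxcl1, a neutrophil chemokine, had 1.25 FPKM at 48 h against 9.48 FPKM at 4 h, and the monocyte chemokines Ccl2 and Ccl7 had differences of -1.13 and -1.17. Ptgs2, the inducible cyclooxygenase, was higher, at 12.5 FPKM at 48 h against 4.04 FPKM at 4 h. Cxcl10, with 35.7 FPKM at 48 h and 4.91 FPKM at 4 h, had a difference of 2.63 with a range of -0.36 to 5.97 and was not called. Among 26 growth factors 4 were higher and 4 lower, against 3.85% and 2.37% of all genes. Hbegf, an EGF receptor ligand, had 58.9 FPKM at 48 h against 16.7 FPKM at 4 h, and Fgf9 had 7.56, 1.68 and 6.94 FPKM at 0, 4 and 48 h. Gdf15 and Inhba were higher by 1.17 and 1.06. Ptn and Mdk, the related heparin-binding factors pleiotrophin and midkine, were lower, with 14.0 FPKM at 48 h against 60.2 FPKM at 4 h for Ptn and 27.0 FPKM against 67.1 FPKM for Mdk. Igf2 and Tgfb3 were lower by 1.11 and 1.01 on the log2 scale.

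**Figure D4:**
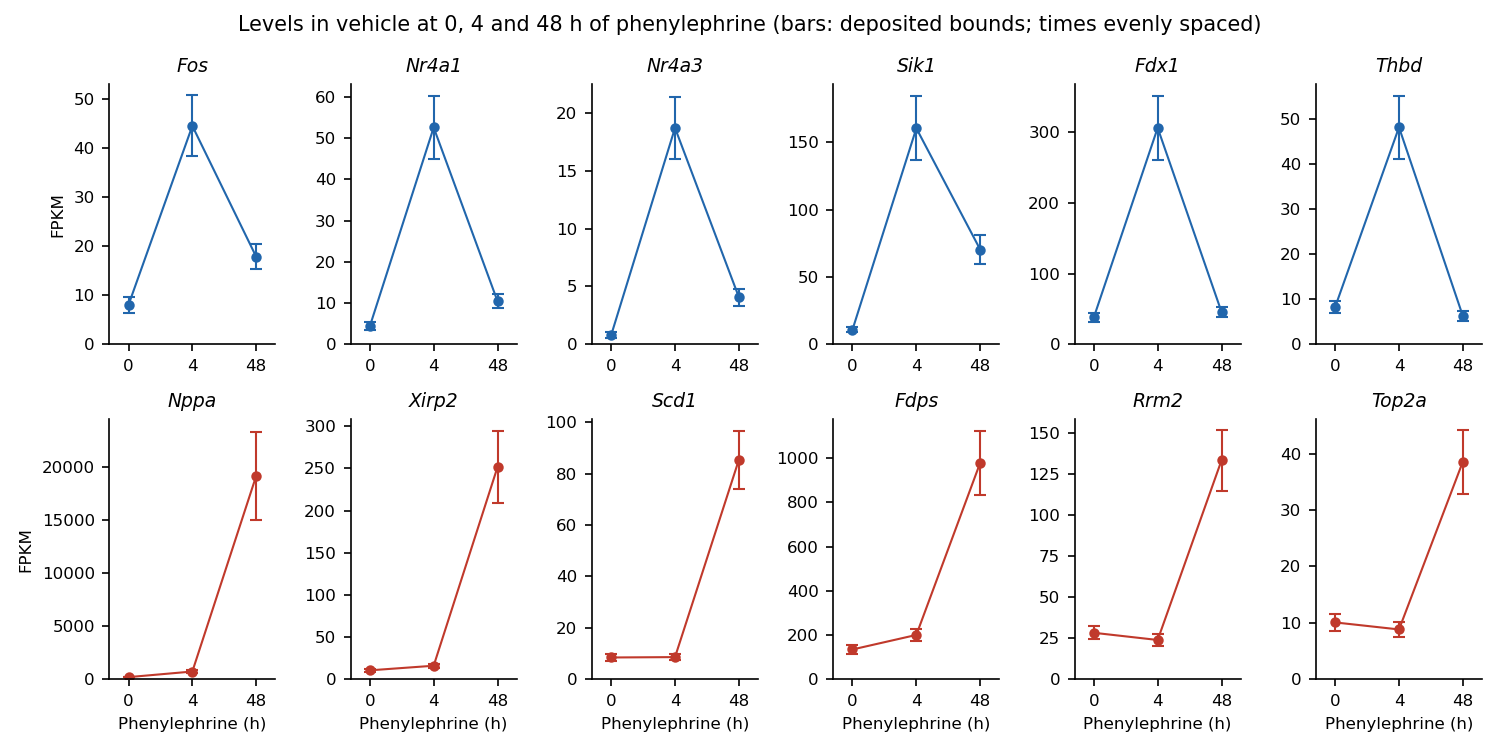
Levels in FPKM of 6 genes that were lower (upper row, blue) and 6 that were higher (lower row, red) at 48 h than at 4 h, at 0, 4 and 48 h of PE in vehicle. Points are the combined value of 3 libraries, bars the deposited bounds, times are evenly spaced and each panel has its own axis from 0. Fdx1 and Thbd were near their 0 h levels again at 48 h, whereas Scd1, Rrm2 and Top2a had at 4 h about their 0 h level.

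Outside these lists, the largest negative difference among called genes was that of Dhrs7c, a dehydrogenase/reductase of the sarcoplasmic reticulum. It had 69.0, 50.5 and 1.76 FPKM at 0, 4 and 48 h, a difference of -4.22 (range -5.04 to -3.56), in the rn6 locus chr10:54352270-54370653. Its 4 h level was thus below its 0 h level, unlike that of the genes with a peak at 4 h. Fdx1, the mitochondrial ferredoxin that donates electrons to P450 enzymes, had such a peak, with 38.1, 306 and 45.8 FPKM. Thbd, thrombomodulin, had 8.26, 48.1 and 6.26 FPKM, and Plagl1, an imprinted zinc-finger factor, had 7.86, 33.0 and 3.25 FPKM. Ppap2b, a lipid phosphate phosphatase, had 31.2, 58.0 and 4.54 FPKM. Perm1, a muscle regulator of oxidative genes, had 11.7 FPKM at 48 h against 65.3 FPKM at 4 h, and Mest, another imprinted gene, had 27.8 FPKM against 149 FPKM. Reg3b, a secreted lectin, had 2186, 1458 and 246 FPKM, with reads that may be shared among the Reg3 genes. Atp6ap1l and Cd74, the MHC class II invariant chain, had differences of -2.52 and -2.40.

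The entries Mir21 and Mirlet7g were also among the 12 lower genes, with differences of -3.03 and -3.00. They are hairpin entries, and the 58 miRNA entries compared had a median locus length of 117 bases. In an mRNA library such entries are not a measure of mature miRNA. In SR9009 Mir21 was listed at 33.0, 0 and 71.5 FPKM at 0, 4 and 48 h, so it was not compared there and its values are uncertain. Of the 58 entries 2 were higher and 8 lower, against 3.85% and 2.37% of all genes.

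Of 18 calcium handling genes 3 were lower and none was higher, against 2.37% and 3.85% of all genes. In all 12 lay below 0, against 49.2% of all genes, and the median was -0.46. Casq1, the calsequestrin counted above in the hypertrophy list, is not among these 18 genes. It was higher, at 321 FPKM at 48 h against 26.6 FPKM at 4 h. Atp2a2, the SERCA2 calcium pump, had 908 FPKM at 48 h (bounds 755 to 1062) against 2876 FPKM at 4 h (bounds 2221 to 3530), a difference of -1.66 (range -2.22 to -1.06), in the rn6 locus chr12:39553903-39603326. Its 0 h level was 2359 FPKM. Pln, phospholamban, the inhibitor of that pump, had 1121 FPKM at 48 h against 2252 FPKM at 4 h, in a locus that overlaps Cep85l. Hrc, a calcium-binding protein of the sarcoplasmic reticulum, had 10.6 FPKM at 48 h against 33.5 FPKM at 4 h. Ryr2, the calcium release channel, had 93.0 FPKM at 48 h and 159 FPKM at 4 h, a difference of -0.77 that was not called. Channel and connexin genes gave 3 lower and 1 higher of 20. Gja5 (connexin 40), Kcnd2 (a transient outward potassium channel) and Scn4b (a sodium channel β subunit) were lower by 1.66, 1.34 and 1.13 on the log2 scale, while Scn3b, described above, was higher. Gja1, connexin 43, had 239 FPKM at 48 h and 433 FPKM at 4 h and was not called.

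Genes of oxidative energy metabolism were mostly shifted by less than the size limit. Of 40 subunits of oxidative phosphorylation 1 was lower and none higher, but 38 had a difference below 0, against 49.2% of all genes, and the median was -0.47. Their median level was 8.81, 9.27 and 8.75 on the log2(FPKM + 1) scale at 0, 4 and 48 h. The subunit called lower was Cox8b, a muscle form of cytochrome oxidase, with 532 FPKM at 48 h against 1450 FPKM at 4 h. Atp5b, the catalytic β subunit of ATP synthase, had 4494, 5542 and 3707 FPKM at 0, 4 and 48 h. Of 25 genes of fatty acid uptake and oxidation 3 were lower and 22 lay below 0, with a median of -0.45. Hadh, a short-chain hydroxyacyl-CoA dehydrogenase, had 25.3 FPKM at 48 h against 112 FPKM at 4 h. Acaa2, a thiolase, and Cd36, a fatty acid transporter whose locus overlaps RGD1565355, had differences of -1.43 and -1.09.

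Glycolytic genes differed by isoform. Of 20 genes 2 were higher and 3 lower, against 3.85% and 2.37% of all genes, with a median of 0.19. Among phosphofructokinases, Pfkm, the muscle isoform, was lower, at 64.5 FPKM at 48 h against 145 FPKM at 4 h. Pfkp and Pfkl, the platelet and liver isoforms, were higher, at 380 FPKM against 159 FPKM and at 64.8 FPKM against 24.7 FPKM. Pgam2, the muscle phosphoglycerate mutase, had 52.7 FPKM at 48 h against 199 FPKM at 4 h, and Pgam1 had 326 FPKM and 227 FPKM and was not called. Aldoc, an aldolase, was lower by 1.45 on the log2 scale. Ribosome biogenesis genes were mostly below 0, 22 of the 25, and their median was -0.26. None of them was called.

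Most genes of the stress response lists were not called. Among all genes 49.2% lay below 0. All 18 genes of endoplasmic reticulum chaperones and the unfolded protein response lay above 0 with a median of 0.37. Their median level was 6.62, 6.19 and 6.63 on the log2(FPKM + 1) scale at 0, 4 and 48 h. Only Dnajb9, a co-chaperone, was called, with 83.0, 33.2 and 69.5 FPKM at those times. Its bounds at 0 h (72.9 to 93.1) and at 48 h (60.9 to 78.2) overlapped, so those 2 levels were not set apart. Of 25 ATF4 amino acid response genes 20 lay above 0, and the list median was 0.30. Only 1 was higher, a share near the 3.85% of all genes. It was Vldlr, the VLDL receptor, at 93.3 FPKM at 48 h against 31.1 FPKM at 4 h. None of 15 cytosolic heat shock protein genes was called, and the median of 0.03 was near that of all genes. Among 15 antioxidant genes Hmox1 (heme oxygenase 1) and Srxn1 (sulfiredoxin) were higher by 1.30 and 1.10. Gsta1, a glutathione transferase with close copies, was lower, at 7.15 FPKM at 48 h against 32.6 FPKM at 4 h.

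Extracellular matrix genes had 25 of 33 members above 0 and a median of 0.43. In that list 4 were higher and none lower, against 3.85% and 2.37% of all genes. Its median level was 6.60, 5.80 and 6.51 on the log2(FPKM + 1) scale at 0, 4 and 48 h. Among the 4 higher genes were Lox and Loxl2, which cross-link collagen and elastin, and Bgn, the proteoglycan biglycan. Lox, in a locus that overlaps Zfp474, had 38.1, 18.4 and 49.4 FPKM at 0, 4 and 48 h. Interferon-stimulated genes had 4 of 18 higher and none lower, with a median of 0.35. That count was 1 when a mean of at least 5 FPKM was required and 6 with a pseudocount of 0. Ifit3, Oasl and Rsad2, antiviral effectors, had 7.86, 9.54 and 6.85 FPKM at 48 h against 1.20, 1.81 and 1.14 FPKM at 4 h, all at low levels. Isg15, a ubiquitin-like modifier, had 71.3 FPKM at 48 h against 28.4 FPKM at 4 h. Of 14 clock genes Ciart, a repressor of the clock activators, was higher, at 5.78 FPKM against 1.72 FPKM. Arntl, the activator BMAL1, had 7.50, 20.0 and 13.3 FPKM at 0, 4 and 48 h, and its difference of -0.56 was not called. Of 21 FOXO and atrophy genes Irs2, an insulin receptor substrate, was lower, with 15.2, 89.6 and 40.2 FPKM, and Ccng2, a cyclin induced by FOXO factors, was higher, with 17.8, 3.39 and 7.91 FPKM. With 1 of 21 genes each way, the FOXO list was near the shares of all genes. None of 20 actin cytoskeleton genes was called.

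Markers of other cell types were examined because fewer cells of a type and less RNA per cell cannot be told apart in such samples. Cardiomyocyte markers were abundant, and the 8 that could be summed totalled 28856 FPKM at 48 h against 28275 FPKM at 4 h. Most of that was Actc1, and the other 7 totalled 7326 FPKM at 48 h against 10501 FPKM at 4 h. Of the 8, 6 lay below 0, with a median difference of -0.47, and Tnni3, Myl7 and Pln were called lower. Fibroblast markers were present too. Their 10 genes summed to 1087 FPKM at 48 h against 1101 FPKM at 4 h, mostly from collagens, with Col1a2 listed at 0 at all times. Of 9 fibroblast markers compared, Lum, Dcn, Dpt and Pdgfra were lower, with Lum (lumican) at 18.1 FPKM at 48 h against 62.3 FPKM at 4 h. Collagen genes Col1a1 and Col3a1 had differences of 0.48 and -0.43. The part of these markers in the matrix and cell cycle differences was not tested.

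Among smooth muscle markers Cnn1, calponin, had 229 FPKM at 48 h against 53.2 FPKM at 4 h, while the other 7 were not called, and the 8 summed to 1960 FPKM against 1485 FPKM. Endothelial markers summed to 16.7 FPKM at 48 h against 27.9 FPKM at 4 h, with Emcn called lower of 8 compared and Robo4 listed at 0. Macrophage markers summed to 31.7 FPKM at 48 h against 38.3 FPKM at 4 h, with Aif1 called lower of 8. Of 6 pericyte markers Rgs5 was higher, and their sums were 180 FPKM at 48 h and 173 FPKM at 4 h. Epicardial markers summed to 9.2 FPKM at 48 h and 13.4 FPKM at 4 h, and Schwann cell markers to 5.5 FPKM and 4.8 FPKM, with none called. The globin genes Hba1 and Hbb were lower, at 9.17 FPKM at 48 h against 47.0 FPKM at 4 h for Hba1, whose reads may be shared with Hba2.

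The same times were sampled in myocytes pretreated with SR9009, from other libraries. Of 10406 genes there, 2.49% were higher and 2.0% lower at 48 h than at 4 h. Over the 10394 genes compared in both pretreatments the differences had a Pearson r of 0.24 and a Spearman rho of 0.23, a description across genes that are not independent. Of the 400 genes higher in vehicle 41 (10.2%) were also higher in SR9009, or 15.9% of the 258 there. Of the 243 genes lower in vehicle 48 (19.8%) were also lower in SR9009, or 23.1% of the 208 there. Those 400 genes had a median difference of 1.31 in vehicle and 0.21 in SR9009, and the 243 genes -1.28 in vehicle and -0.25 in SR9009. The vehicle differences chose these genes, and SR9009 values entered only through the filter on the mean of the 6 groups.

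The 2 large groups that were higher in vehicle had medians near 0 in SR9009. The sterol and fatty acid list had a median of 1.15 in vehicle and -0.16 in SR9009, and the cell cycle list 1.24 and 0.19, with 1 and 0 members higher in SR9009. In SR9009 the sterol and fatty acid genes summed to 1161, 2156 and 1879 FPKM at 0, 4 and 48 h, so their sum was already raised at 4 h. The vehicle sums were 1036, 1518 and 4012 FPKM. Nppa had a difference of 4.74 in vehicle and 1.98 in SR9009, Xirp2 3.91 and 0.75, and Nppb 2.21 and -0.51. The oxidative phosphorylation list had a median of -0.47 in vehicle and 0.09 in SR9009, and calcium handling -0.46 and 0.57. The list of immediate early factors had a median of -0.21 in vehicle and -0.39 in SR9009, with 5 members lower in each. Genes with a peak at 4 h in vehicle varied in how far the pretreatments stood apart. Fos had -1.27 in vehicle and -1.31 in SR9009, Fdx1 -2.72 and -2.73, and Nr4a3 -1.96 and -1.71. Farther apart were Nr4a1 at -2.23 in vehicle and -1.32 in SR9009, Thbd at -2.76 and -1.74, Plagl1 at -3.00 and -1.09, Ppap2b at -3.41 and -0.84, and Rrad at -1.79 and -0.45. Bdkrb2 had -0.38 in vehicle and -4.09 in SR9009. None of these differences between pretreatments was tested, as there is 1 value per gene and group.

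**Figure D5:**
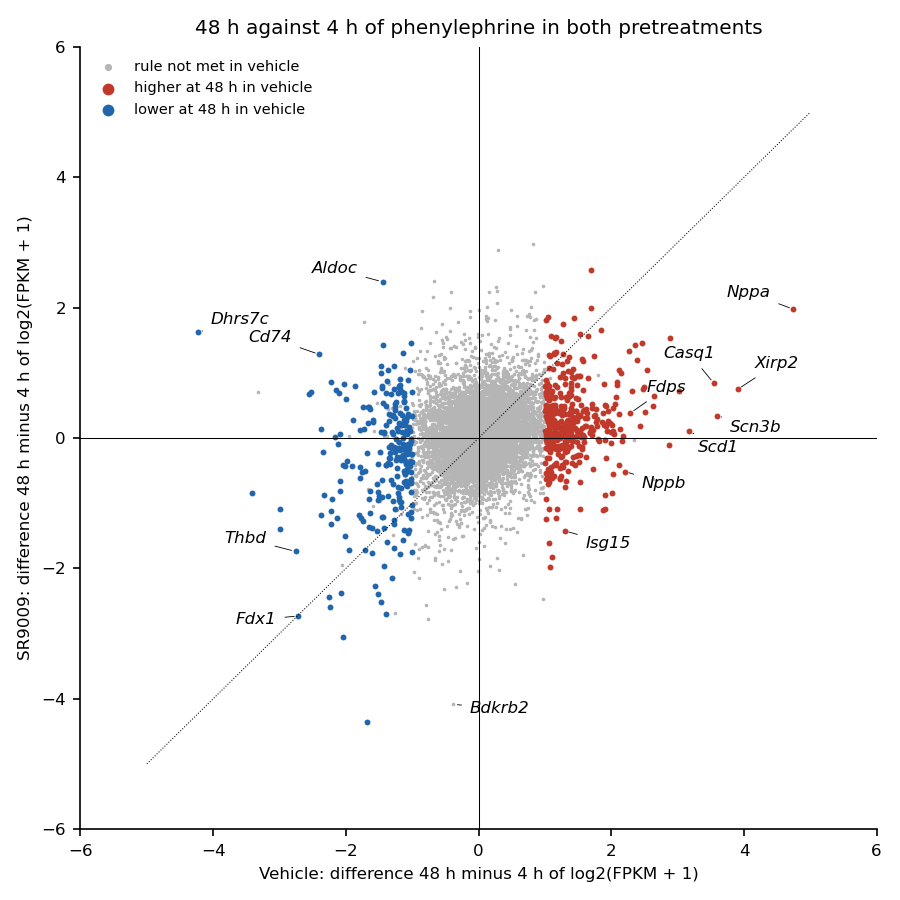
Difference 48 h minus 4 h of log2(FPKM + 1) in vehicle (horizontal axis) and in SR9009 (vertical axis) for genes compared in both, with red and blue for genes higher and lower in vehicle and the dotted line marking equal differences. Fdx1 lies on that line, Nppa (4.74 and 1.98) and Scd1 (3.18 and 0.11) lie below it, and Dhrs7c (-4.22 and 1.62) lies in the opposite quadrant.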

How the data were processed

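Messenger RNA of cultured neonatal rat ventricular myocytes was sequenced from libraries made with a stranded mRNA kit after Trizol and column extraction, per the labels' protocols. Per the submitters' processing notes, the tools were Cuffdiff, TopHat, Trim Galore and FastQC, with build rn6 and no versions. The deposited table gives 1 FPKM per gene and group, with a lower and an upper bound, which the authors made from 3 libraries. How libraries were scaled to one another, and the confidence level of the bounds, is not given in the sources used here. Whether the 3 libraries of a group came from separate cultures is not stated. Values per library were not used here, so no test, standard deviation or p-value was computed, and depth is unknown.

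Groups were taken from the sample labels. From the FPKM, differences of log2(FPKM + 1) were computed with a pseudocount of 1. The rule (a difference of at least 1 and a range from the bounds that excludes 0) was tested on simulated data. The noise there was drawn from the deposited bounds themselves, so that test says nothing of the spread between libraries. Of 10545 genes averaging at least 1 FPKM, 71 were listed at 0 at both times, 22 only at 48 h, 16 only at 4 h, and 5 lacked the status OK at either time; none of these was compared. Another 16 compared genes had a value outside its own bounds and entered no call. A listed 0 can be a failed estimate.

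Genes named are the 12 largest differences per direction with at least 5 FPKM in either group, up to 4 called members of each of 24 pathway lists, called members of 9 cell type lists, and Nppa, Nppb, Acta1, Myh6, Myh7, Fos, Nr4a1, Nr4a3, Sik1, Bdkrb2 and Arntl. Some items that this rule names are not reported here. Other list members are named after their values were seen. The members and lists were chosen with earlier results of these data known. Promoter windows are those of RefSeq build GRCr8. They were matched by symbol, or by a unique synonym where the symbol had no entry, for 8445 of the 10431 genes. Alternatives tried were the pseudocount, the filter on low values, the scaling between groups, the size limit and the use of the bounds. Python 3.11.15, pandas 2.3.3, numpy 2.4.6 and matplotlib 3.10.9 were used.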

Additional observations from a re-analysis of the deposited data

Results flagged for a closer look

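Of the named genes, 7 were called in opposite directions at 48 h against 4 h in vehicle and in SR9009. Dhrs7c had a difference of -4.22 in vehicle and 1.62 in SR9009, Cd74 -2.40 and 1.28, and Aldoc -1.45 and 2.40. Srxn1 had 1.10 in vehicle and -1.82 in SR9009, Oasl 1.91 and -1.10, Rsad2 1.87 and -1.11, and Isg15 1.30 and -1.43. Dhrs7c had 34.6 FPKM at 48 h and 10.6 FPKM at 4 h in SR9009. Because each group has 1 combined value per gene, the difference between pretreatments was not tested.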

How the results depend on the processing

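The numbers of genes higher and lower at 48 h depended on the size limit. With a limit of 1.5-fold 1044 genes were higher and 755 lower, and with 3-fold 94 and 66. They stayed within 1.5 times of 401 and 247 under the other settings tried (pseudocounts of 0.1 and 0, no filter or a mean of at least 5 FPKM, equal sums, median centring, quantile normalization, bounds ignored, bounds combined as the root of squares), and no named gene changed direction under any setting. Scaling moved the median of all genes by less than 0.03 on the log2 scale. Ccng2 missed the rule with equal sums, Pln, Ccng2 and Tnni3 missed it with quantile normalization, and 44 of the 100 named genes compared missed it at 3-fold. With a mean of at least 5 FPKM 85 of the 100 were still compared. Apart from the size limit, counts of list members moved by over 1.5 times in several lists with few called genes. Endothelial markers lower were 4 with a pseudocount of 0 and 0 with a mean of at least 5 FPKM, against 1, macrophage markers lower were 2 and 0, against 1, and interferon-stimulated genes higher were 1 with that filter, against 4. With that filter no G-protein-coupled receptor, cytokine, channel or clock gene was called higher, against 1 in each list, and 1 receptor was lower, against 2. With quantile normalization 1 cardiomyocyte marker was lower, against 3, and 1 sarcomere gene, against 2, while 1 actin cytoskeleton gene was higher, against 0, and 2 oxidative phosphorylation genes were lower, against 1. Cytokine genes higher were 2 without the bounds, or with them combined, against 1. FOXO genes higher were 0 with equal sums or quantile normalization, against 1, and lower were 2 with smaller pseudocounts or quantile normalization, against 1. At 1.5-fold and 3-fold the sterol and fatty acid list had 28 and 4 genes higher, against 18, and the cell cycle list 39 and 6, against 30. The medians of the cytosolic heat shock and macrophage lists changed sign with a mean of at least 5 FPKM, where fewer genes were compared. No Schwann marker was left to compare with that filter, so that list had no median there. No paired analysis was possible because the table holds 1 value per gene and group, and leaving out a library was not run for the same reason. Unknown depth limits what can be said of low genes such as Ifit3 and Rsad2.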
